A study of Danio rerio with 2 samples.

Results

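The 7 genes described here, actc1b, myl1, myl10, myl13, tnnt2c, tnni2b.1 and pvalb9 (synonym ocmb), were grouped as genes of the skeletal muscle contractile apparatus and its calcium handling. They were taken by name from the 25743 genes counted in the files, and each has 1 row there. Their identifiers are ENSDARG00000099197 for actc1b, ENSDARG00000014196 for myl1, ENSDARG00000062592 for myl10, ENSDARG00000042245 for myl13, ENSDARG00000032242 for tnnt2c, ENSDARG00000035958 for tnni2b.1 and ENSDARG00000071601 for pvalb9. GFP-positive cells were sorted from whole zebrafish embryos at the 20-somite stage, and 1 droplet-based single-cell library was made from embryos heterozygous and 1 from embryos homozygous for etv2ci32Gt; UAS:GFP. In this line a gene trap inserted in etv2, which encodes an ETS transcription factor of endothelial and blood progenitors, drives Gal4 and thereby GFP from the UAS promoter. Cells of both libraries thus carried the trap and the reporter, the heterozygous ones beside 1 untrapped etv2 allele, and no library without the trap was analysed here. Each library came from a pool of embryos, so the spread between embryos is not known.

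In the sarcomere, the contractile unit of striated muscle, thick filaments of myosin pull on thin filaments of actin. Myosin heavy chains carry essential and regulatory light chains, and the troponin complex with tropomyosin makes the thin filament respond to calcium. Somitic muscle of the zebrafish has an early superficial layer of slow fibres and a deep mass of fast fibres, which use partly different isoforms of these proteins. Before they switch on contractile genes, myoblasts express the bHLH factors myf5 and myod1, and myog accompanies their differentiation. Among the genes here, actc1b encodes an alpha-actin of the thin filament that is strongly expressed in zebrafish skeletal muscle. The myosin light chains are represented by myl1, the essential light chain of fast fibres, and by myl10 and myl13. Troponin is represented by tnnt2c, a troponin T, which ties the complex to tropomyosin, and by tnni2b.1, a troponin I of the fast family, which blocks contraction at low calcium. Parvalbumins such as pvalb9 buffer calcium in fast muscle and in some neurons and sensory cells.

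A count is the number of different unique molecular identifiers (UMIs) of a gene in a droplet barcode. Barcodes with at least 2500 UMIs, more than 200 and up to 3500 genes and at most 5% mitochondrial counts were kept as cells. This gave 1608 cells of 2514 to 30674 UMIs (median 10036.5) for the heterozygous library, and 473 of 2535 to 32708 UMIs (median 13079) for the homozygous one. The trapped gene itself, etv2, had 4908 counts in heterozygous cells and 95 in homozygous cells, a ratio of counts per 1000000 UMIs (CPM) of 0.0522 (95% interval, 0.0421 to 0.0639). Where its reads lie relative to the trap was not examined. This ratio is over all kept cells. The endothelial progenitor-like (EPC-like) cluster, with etv2 among its markers, held 222 heterozygous and 3 homozygous cells. How much of the ratio follows this difference in make-up was not tested. The labels call the sorted cells endothelial, but only 378 heterozygous cells and 2 homozygous cells fell into endothelial-like clusters. No barcode was kept in both libraries, yet all 473 homozygous barcodes also had UMIs in the heterozygous library (median 157), of which 99.4% lay in genes detected in the same barcode at home, and all 1608 heterozygous barcodes had UMIs in the homozygous library (median 45). These shared barcodes carried 26 and 5 counts of the 7 genes in the other library, where none of them was a kept cell. Free RNA, estimated from hemoglobin genes in cells of other lineages, was put at 4.15% of the UMIs in heterozygous cells and 2.05% in homozygous cells. No doublet caller was run. All intervals are exact 95% intervals that hold only the counting error. A replicate check and p-values are not possible with 1 library for each genotype, and a difference between the libraries cannot be told apart from one between their sorts or preparations.

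Over all kept cells, every one of the 7 genes was higher in the homozygous library. Their summed counts were 528 of 16913592 UMIs in the heterozygous library (31.2 CPM, 28.6 to 34.0) and 2155 of 6277215 UMIs in the homozygous library (343 CPM, 329 to 358), a ratio of 11.0 (9.99 to 12.1). All 7 of 7 genes were at least 2-fold higher, where 4.61% of the 9471 genes with at least 50 counts were, and another 8.53% of genes were at least 2-fold lower. The median log2 ratio of the 7 genes was 3.74, against -0.02 over all those genes. The 50 counts were summed over both libraries, and myl1, myl13, tnnt2c and pvalb9 passed this limit only through the homozygous one. Most of the homozygous counts, however, lay in 1 cell, and the genes differed in how much of their change remained without it.

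For actc1b the heterozygous library held 78 counts (4.61 CPM) and the homozygous library 376 (59.9 CPM), a ratio of 13 (10.2 to 16.8). The myosin light chain gene myl1 had 47 and 150 counts (2.78 and 23.9 CPM), a ratio of 8.60 (6.16 to 12). Of the homozygous counts of these 2 genes, 349 and 108 lay in the cells called myocyte-like below. For myl10 there were 120 and 598 counts (7.09 and 95.3 CPM, ratio 13.4, 11.0 to 16.5). For myl13 there were 20 and 420 counts (1.18 and 66.9 CPM, ratio 56.6, 36.2 to 93.6). The troponin T gene tnnt2c had 7 and 160 counts (0.414 and 25.5 CPM), a ratio of 61.6 (29.2 to 156). The high ratios of myl13 and tnnt2c rest on very few heterozygous counts and on a single homozygous cell, and without the UMI minimum they were 11.3 and 16.8. For the troponin I gene tnni2b.1 the counts were 251 and 278 (14.8 and 44.3 CPM), the smallest ratio of the 7 genes at 2.98 (2.51 to 3.55). The parvalbumin gene pvalb9 had the largest, with 5 and 173 counts (0.296 and 27.6 CPM) and a ratio of 93.2 (39.2 to 291).

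The number of cells with a count was low for each gene. At least 1 UMI of any of the 7 genes was found in 222 of 1608 heterozygous cells (13.8%) and 151 of 473 homozygous cells (31.9%). After each cell was thinned to 5157 UMIs, leaving out 331 and 85 shallower cells, these shares were 8.30% (6.85 to 9.95) and 19.3% (15.5 to 23.6). Single UMIs made up most of these cells, since 147 of the 222 and 76 of the 151 had a sum of 1. In macrophage-like cells, which should lack muscle genes, 16 of 228 heterozygous cells had a UMI, at a median depth of 11773.5 UMIs. In RBC-like cells, which should lack them too, 32 of 123 homozygous cells had one, at a median of 18429 UMIs, and after thinning 8.55% (4.17 to 15.2). Of heterozygous RBC-like cells 29 of 255 had one, at a median of 14370 UMIs, and after thinning 4.76% (2.40 to 8.36). The homozygous share was thus higher in this class too, though the intervals after thinning overlap. A single UMI in a cell was therefore not read as expression by that cell, and single cells are described from 5 counts of a gene.

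**Figure D1:**
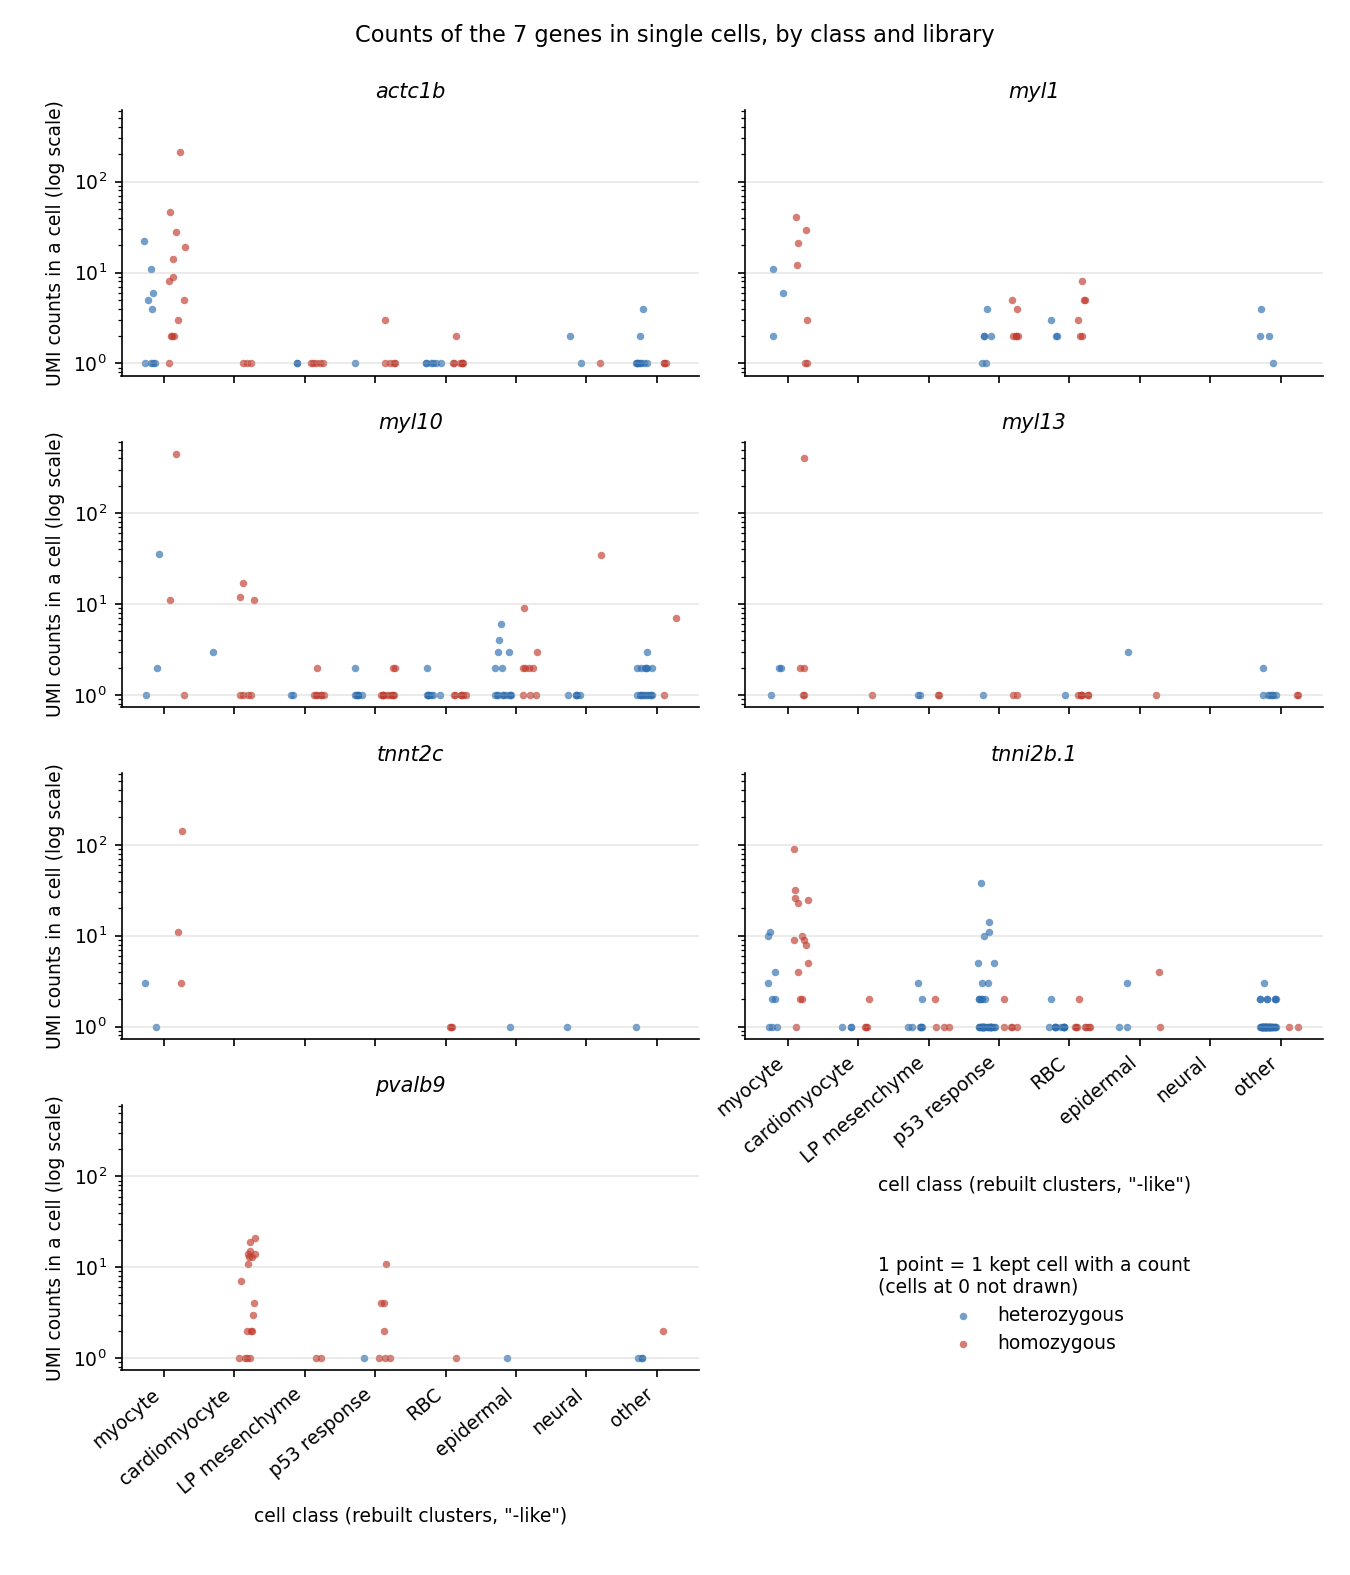
UMI counts per cell (y axis, log scale) of each gene in kept cells with at least 1 count, by cell class (x axis) in the heterozygous (blue) and homozygous (red) library; each point is 1 cell, shifted sideways at random within its class. Counts of 10 or more of actc1b and myl1 lie in myocyte-like cells, those of pvalb9 in homozygous cardiomyocyte-like and p53 response-like cells, and the homozygous cell with 449 myl10, 400 myl13 and 143 tnnt2c counts stands far above all others.

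A single homozygous cell held 1293 of the 2155 homozygous counts (60.0%, 57.9 to 62.1). It contained 210 actc1b, 1 myl1, 449 myl10, 400 myl13, 143 tnnt2c, 90 tnni2b.1 and 0 pvalb9 counts, together 17.0% of its 7613 UMIs. That depth was below the median of its library, it had 1085 detected genes, and mitochondrial genes made up 0.118% of its counts. Its cluster was the myocyte-like one, but it had only 1 myod1 count and none of myf5 or myog. Other sarcomere genes were high in it as well, some of them known from slow and some from fast muscle. It had 24 counts of smyhc1, a slow myosin heavy chain, 22 of tnnc1b, a slow troponin C, and 13 of tnni1c, a slow-type troponin I, and it was the only myocyte-like cell with a count of any of these 3 genes. From the fast set it had 45 counts of the troponin C gene tnnc2, 51 of the actin gene acta1a and 31 of the myosin light chain gene mylpfa. It held 0 counts of etv2 and of the cardiac genes myl7, cmlc1 and vmhc, but 16 counts of smtnl1, listed with the cardiac sarcomere genes below.

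This cell held 95.2% (92.7 to 97.1) of all homozygous myl13 counts and 89.4% (83.5 to 93.7) of all tnnt2c counts. Among the 5797 genes with at least 50 counts in that library these were the 2 highest shares of any gene in any 1 cell, and the median gene had 3.15% of its counts in its highest cell. The same cell held 75.1% of the myl10, 55.9% of the actc1b and 32.4% of the tnni2b.1 counts. For myl1 the highest cell was another one, with 41 of 150 counts (27.3%), and for pvalb9 another again, with 21 of 173 (12.1%). By a limit of 25% of a gene's counts in 1 cell, 6 of 7 genes were past it in the homozygous library, where 0.811% of the tested genes were. In the heterozygous library 2 of the 3 genes with enough counts were past it, actc1b with 28.2% and myl10 with 36 of 120 counts, where 0.475% of 8629 genes were.

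Without this cell the summed counts of the homozygous library fell to 862 (137 CPM), and the ratio over the heterozygous library was 4.404 (3.95 to 4.92) instead of 11.0. The 5 genes that still had 50 counts all remained at least 2-fold higher, where 4.55% of genes were. The ratio of actc1b was then 5.74 (4.36 to 7.61), that of myl10 3.35 (2.62 to 4.30) and that of tnni2b.1 2.02 (1.66 to 2.45). The light chain and troponin genes with most of their counts in the cell changed most. For myl13 the ratio dropped to 2.70 (1.38 to 5.28) with 20 counts in each library, and for tnnt2c to 6.55 (2.58 to 18.7) with 7 and 17 counts. The ratios of myl1 (8.55, 6.12 to 12.1) and pvalb9 (93.3, 39.2 to 291) hardly moved.

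**Figure D2:**
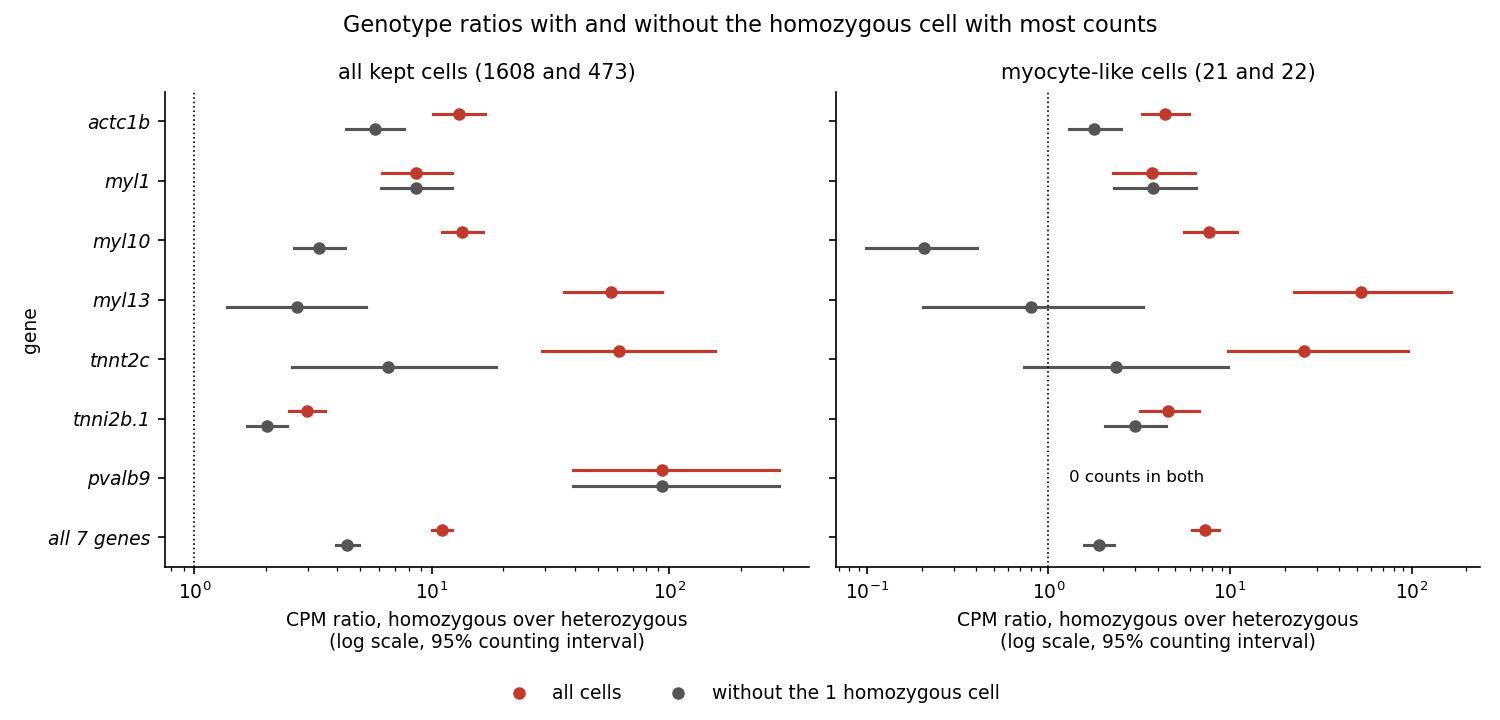
Ratio of CPM, homozygous over heterozygous (x axis, log scale; dotted line at 1), for each gene and their sum (y axis) over all kept cells (left) and over myocyte-like cells (right), with all cells (red) and without the homozygous cell with 1293 counts (grey); bars are 95% counting intervals. Over all kept cells all 7 genes stay above 1 without that cell, while in myocyte-like cells myl10 moves from 7.70 to 0.206 and myl13 from 52.9 to 0.804.

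Barcodes that were not kept held more RNA of this kind. A heterozygous barcode with 1250 UMIs, 445 genes and 2.16% mitochondrial counts, below the limit of 2500 UMIs, carried 217 counts of the 7 genes, 17.4% of its UMIs. They were 39 actc1b, 69 myl10, 82 myl13, 19 tnnt2c and 8 tnni2b.1 counts and none of myl1 or pvalb9, with 9 of smyhc1. A homozygous barcode with 1015 UMIs, left out also for 7.88% mitochondrial counts, carried 122 counts, among them 35 actc1b, 43 myl10 and 33 myl13, with 55 of smyhc1. Both have the make-up of the homozygous cell described above, with much myl10 and myl13, some tnnt2c and almost no myl1. The barcode of that cell also occurred in the heterozygous library, with 102 UMIs and 15 counts of the 7 genes.

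The make-up of the counts thus differed between cells. In the cell with 1293 counts, myl10 made up 34.7%, myl13 30.9% and tnnt2c 11.1% of them, and myl1 0.0773%. In the other 21 homozygous myocyte-like cells together, tnni2b.1 made up 35.9%, actc1b 32.0% and myl1 24.7% of 434 counts, and myl10 2.76% and myl13 1.38%. Of the 154 counts in heterozygous myocyte-like cells, actc1b made up 33.8%, myl10 25.3%, tnni2b.1 22.7% and myl1 12.3%. The myl10 share there came from 1 cell with 36 of its 39 counts. The homozygous empty droplets, barcodes with 1 to 100 UMIs, held 274 counts of the 7 genes in 257 barcodes (399 CPM, 353 to 449), with 31.0% myl10, 25.2% actc1b and 23.0% myl13. The heterozygous empty droplets held 50 counts (39.0 CPM, 29.0 to 51.4), with 32.0% tnni2b.1 and 13 of the 50 counts each from actc1b and myl10. Barcodes kept as cells in the other library were not removed from either set. The 1608 heterozygous cell barcodes, at up to 161 UMIs, held 76751 UMIs and 5 counts of the 7 genes in the homozygous library. Its empty droplets held 687014 UMIs.

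**Figure D3:**
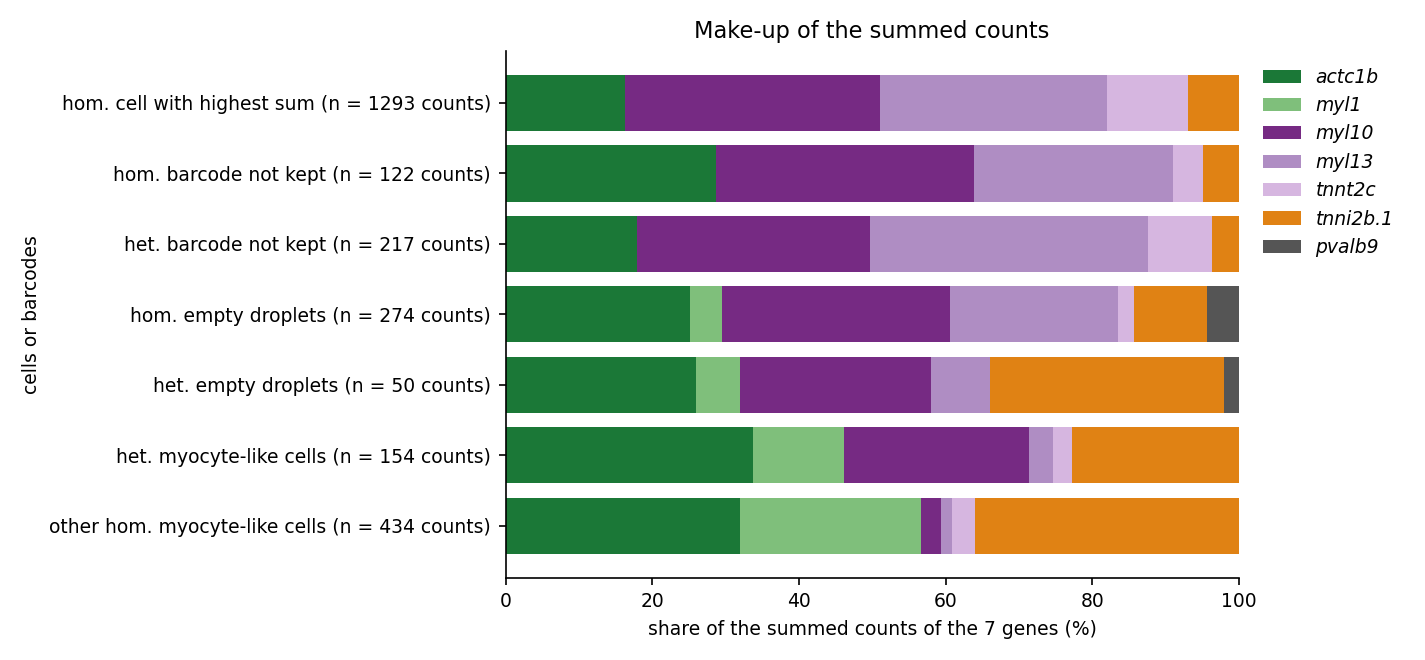
Share of each gene (x axis, percent) in the summed counts of the 7 genes, for single cells, groups of cells, barcodes that were not kept and empty droplets (y axis, with the summed count n); het. and hom. are the heterozygous and homozygous library. The homozygous cell with 1293 counts and the 2 barcodes not kept are rich in myl10 and myl13, and the other 21 homozygous myocyte-like cells in tnni2b.1, actc1b and myl1.

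Cell classes were rebuilt by clustering without the 7 genes and without the other contractile genes. A myocyte-like cluster of 43 cells was named from 14 of 14 markers, among them myod1, myog, myf5, tcf15 and meox1, none of them one of the 7 genes. It held 21 heterozygous cells (1.31% of kept cells, 0.810 to 1.99) and 22 homozygous cells (4.65%, 2.94 to 6.96). The homozygous library also held 2 endothelial-like cells against 378, 3 EPC-like cells against 222 and 3 macrophage-like cells against 228. In the heterozygous library these classes were at 22.8, 8.27 and 8.23 CPM of the 7 genes, against 31.2 CPM over all kept cells. All heterozygous cells outside the myocyte-like class were at 22.4 CPM, so the endothelial-like cells were not low among them. Shares of the other classes are thus set against different totals, and the ratios over all kept cells also hold this difference in make-up. How much of those ratios it makes up was not computed. Myocyte-like cells held 154 of 528 heterozygous counts of the 7 genes (29.2%, 25.3 to 33.2) and 1727 of 2155 homozygous counts (80.1%, 78.4 to 81.8). The homozygous share was 50.3% once the highest cell of each library was left out.

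Within myocyte-like cells, 3 of 3 heterozygous and 6 of 7 homozygous genes with enough counts were at least 2-fold higher than in the other cells of their library, where 12.0% and 6.93% of genes were. These calls add a prior count of 0.5 to both groups, which matters in a class this small. Without it the same genes of the 7 were called, and 7.52% and 5.90% of all tested genes were higher, while 41.9% and 33.6% were lower instead of 25.3% and 27.6%. For actc1b this was 285 against 1.55 CPM in the heterozygous and 1246 against 4.50 CPM in the homozygous library. The exception was pvalb9, with 0 counts in all 43 myocyte-like cells (up to 20.2 CPM in the heterozygous and 13.2 CPM in the homozygous library). In this sense the data go against pvalb9 as a gene of the myocyte-like cells, and it is described separately.

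The myocyte-like cells themselves varied widely. In the heterozygous library 7 of 21 cells had no count of the 7 genes, 9 had 1 to 4 and 5 had at least 5, with a median sum of 2 and a highest of 45. In the homozygous library 3 of 22 cells had none, 6 had 1 to 4 and 13 had at least 5, with a median of 6. Sums of 50 or more occurred in 5 homozygous and 0 heterozygous cells. The homozygous myocyte-like cells were also deeper, at a median of 14156.5 UMIs against 7532. Relative to depth, heterozygous cells with sums of 30, 45 and 45 were at 6550, 5381 and 3438 CPM. The 5 homozygous cells with 50 or more were at 2915, 3069, 5385, 8609 and 169841 CPM. After thinning to 5157 UMIs, 12 of 17 heterozygous and 14 of 18 homozygous cells had a UMI of any of the 7 genes, shares of 70.6% (44.0 to 89.7) and 77.8% (52.4 to 93.6) whose intervals overlap.

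Summed over the class, the 7 genes had 843 CPM in heterozygous and 6163 CPM in homozygous myocyte-like cells, a ratio of 7.31 (6.20 to 8.68). All 6 genes with enough counts were at least 2-fold higher, where 4.93% of 811 genes were, and 2.22% of genes were at least 2-fold lower. Only actc1b, with 52, had at least 50 heterozygous counts in the class. The others passed the limit through the homozygous cells. Without the cell with 1293 counts the homozygous level was 1592 CPM and the ratio 1.89 (1.57 to 2.28). Of the 4 genes then tested 2 were at least 2-fold higher and 1 at least 2-fold lower, where 4.04% and 2.77% of genes were. The difference between the genotypes within this class was therefore mostly that of 1 cell, and the single genes no longer moved the same way.

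Higher without that cell were myl1, with 19 heterozygous and 107 homozygous counts and a ratio of 3.77 (2.30 to 6.51), and tnni2b.1, with 35 and 156 counts and a ratio of 2.99 (2.06 to 4.44). For actc1b, with 52 and 139 counts, the ratio was 1.79 (1.29 to 2.51). Counts of actc1b and tnni2b.1 were spread over several cells, those of myl1 over fewer, with 11 of its 19 heterozygous counts in 1 cell. Counts of tnni2b.1 were found in 9 of 21 heterozygous and 14 of 22 homozygous cells, of actc1b in 9 and 13, and of myl1 in 3 and 7. Thinned to equal depth, actc1b was found in 6 of 17 and 10 of 18 cells, and myl1 in 2 of 17 and 6 of 18. In RBC-like cells, which should lack actc1b, it was seen in 6 of 255 heterozygous and 7 of 123 homozygous cells, none with more than 2 counts.

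For the remaining 3 genes most of the homozygous counts lay in 1 cell. For myl10, 461 homozygous counts lay in 3 cells with 449, 11 and 1 counts, and 39 heterozygous counts in 3 cells with 36, 2 and 1. Its ratio was 7.70 (5.55 to 11.0) with all cells and 0.206 (0.0983 to 0.402) without the cell with 1293 counts. With the highest myl10 cell of each library left out, 3 and 12 counts gave a ratio of 2.56 (0.690 to 14.1). Leaving out the highest cell by sum gives no single answer in the heterozygous library, where 2 cells tie at 45 counts and 1 of them holds the 36 myl10 counts. The direction of myl10 in this class was thus set by 1 cell in each library. For myl13 there were 5 heterozygous counts in 3 cells and 406 homozygous counts in 5 cells, 400 of them in the same cell, and the ratio went from 52.9 (22.5 to 164) to 0.804 (0.204 to 3.33) without it. For tnnt2c the counts were 4 in 2 cells and 157 in 3 cells, and the ratio went from 25.6 (9.79 to 95.1) to 2.34 (0.736 to 9.78).

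Most cells with several actc1b counts also had myog. Of the 12 cells of both libraries with at least 5 actc1b counts, all were myocyte-like, 11 also had tnni2b.1, 11 had myog and 8 had myl1. In the homozygous cell with the second highest sum there were 46 actc1b, 41 myl1, 32 tnni2b.1 and 11 tnnt2c counts beside 51 myog counts. In the heterozygous cell with the most actc1b there were 22 actc1b, 11 myl1 and 11 tnni2b.1 counts beside 18 of myog. The 36-count myl10 cell of the heterozygous library differed in its regulators, with 17 counts of meox1 and 8 of tcf15, both somite genes, and 1 of myog. It too had contractile genes, with 5 counts of actc1b, 4 of tnni2b.1, 5 of acta1a and 9 of the tropomyosin gene tpma. It is thus among the 12 cells above, and its single myog UMI puts it among the 11 with myog.

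Split at a sum of 5 counts, near which 2 heterozygous and 3 homozygous cells lie with sums of 3 to 7, the myocyte-like cells differed in their regulators. The early factor myf5 was at 359 CPM (264 to 478) in the 16 heterozygous cells below the limit and at 0 in the 5 cells above it. In the homozygous library myf5 was at 378 CPM (270 to 514) in 9 cells below and 28.7 CPM (9.32 to 67.0) in 13 cells above. Conversely, myog was at 68.8 CPM (31.5 to 131) below and 926 CPM (683 to 1228) above the limit in heterozygous cells. In homozygous cells it was at 66.1 (26.6 to 136) and 2008 CPM (1803 to 2230), and in neither library do these intervals overlap. For myod1 the values were 933 and 77.2 CPM in the heterozygous and 812 and 562 CPM in the homozygous library, and all 13 homozygous cells above the limit had a myod1 count, against 1 of 5 heterozygous ones. The early somite factor tcf15 was at 1360 CPM below and 419 CPM above the limit in the homozygous library, and meox1 at 831 and 149 CPM. In heterozygous cells both summed levels differed less, with tcf15 at 994 (830 to 1180) and 637 CPM (438 to 894). There meox1 was at 703 (567 to 863) and 386 CPM (236 to 596), and the intervals overlap. Of the 33 heterozygous tcf15 counts above the limit, however, 24 and 8 lay in 2 cells, which also held all 20 meox1 counts. These 2 cells had 0 and 1 myog counts. The other heterozygous cells above the limit had 1 tcf15 count and no meox1, beside 18, 9 and 20 counts of myog. The median depth of the cells was 7417 below and 8362 above the limit in the heterozygous library, and 14372 and 13941 in the homozygous one. Across cells the rank correlation of the sum with myog was 0.44 over 21 heterozygous and 0.57 over 22 homozygous cells, and that with myf5 was -0.53 and -0.49, where cells of a library share their preparation and differ in depth. Without the cell with 1293 counts, which had no myog, the homozygous value for myog was 0.76.

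**Figure D4:**
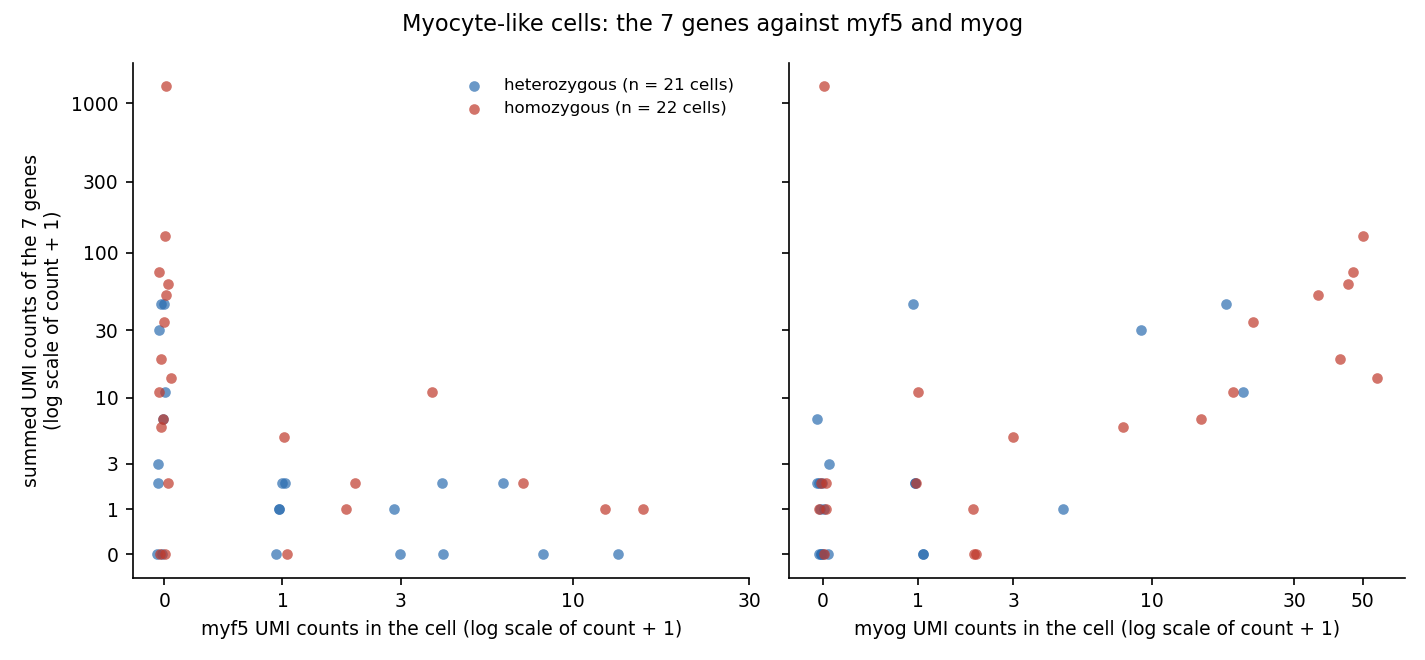
Summed counts of the 7 genes (y axis) against counts of myf5 (left) and myog (right) in the 21 heterozygous (blue) and 22 homozygous (red) myocyte-like cells, both axes on a log scale of the count plus 1 and points shifted slightly sideways. Cells with many myf5 counts have few counts of the 7 genes, cells with over 10 myog counts have sums of 11 or more with 1 exception of 7, and the cell with 1293 counts has neither factor.

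The libraries differed in the balance of these factors within the class. Homozygous over heterozygous, myog was at 1274 against 312 CPM, a ratio of 4.08 (3.08 to 5.50), and myf5 at 161 against 257 CPM, a ratio of 0.624 (0.405 to 0.960). For myod1 the ratio was 0.952 (0.755 to 1.204), an interval that includes 1. Cells with a myog count numbered 9 of 21 heterozygous and 16 of 22 homozygous ones, with up to 20 and 58 counts in a cell. For myf5 they numbered 12 and 8. The intervals do not hold this spread between cells. Counts of etv2 in the class were 6 in 3 heterozygous cells and 1 in 1 homozygous cell, all in cells with a sum under 5.

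Other muscle genes, grouped by role, gave the following. Of the 24 genes of the fast filaments, 18 had counts in heterozygous and 13 in homozygous cells. Of those with at least 50 counts, 2 of 2 and 5 of 5 were called at least 2-fold higher in myocyte-like than in other cells. Over all tested genes 12.0% and 6.93% were. Outside the class, homozygous acta1a, acta1b, tnnc2 and tpm2 had 42, 36, 9 and 48 counts, and so passed the limit of 50 only through it. So did some homozygous genes of the lists below, such as ttn.1 with 29 and hsp90aa1.1 with 33 counts outside. The heterozygous call of tpm2, a tropomyosin gene, rests on 2 counts (10.95 against 6.34 CPM) and is lost without the prior count. Their summed homozygous over heterozygous ratio in the class was 4.70 (3.47 to 6.49), and 1.24 (0.865 to 1.80) without the cell with 1293 counts. Among them, tpma, a tropomyosin, had 20 and 42 counts, acta1a 5 and 74, tnnc2 5 and 60, and tpm2 2 and 48. Thus acta1a, tnnc2 and tpm2 had 51, 45 and 48 of their homozygous counts in the one cell.

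For the slow filaments, of 14 genes present in the files, 8 and 9 were detected. None of the 2 with at least 50 counts in each library was 2-fold higher in myocyte-like cells, where 12.0% and 6.93% of all tested genes were. Their ratio was 4.36 (2.56 to 7.90), and 0.377 (0.147 to 0.906) without that cell. Most slow-list counts outside the class were those of tpm3, a tropomyosin gene also used by other cell types, with 5611 and 1232 counts. Within the class tpm3 had 11 and 43 counts, and 38 of the 43 lay in the one cell.

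Genes of calcium handling and energy supply, of which 13 and 15 of 22 were detected, had 8 heterozygous and 69 homozygous counts in the class, a ratio of 5.62 (2.70 to 13.5). Without the cell it was 3.18 (1.46 to 7.90). Examples are ckmb, a muscle creatine kinase, with 1 and 29 counts, and atp2a1, the calcium pump of fast muscle, with 2 and 20. No parvalbumin of that list, pvalb1 to pvalb8, had a count in a myocyte-like cell.

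Genes of the Z-disc, the M-band and the cytoskeleton had 81 and 245 counts, a ratio of 1.97 (1.53 to 2.57) and 1.69 (1.298 to 2.21) without the cell. They were found in 19 of 21 and 20 of 22 myocyte-like cells. Of those with enough counts, 2 of 5 heterozygous and 6 of 7 homozygous genes were at least 2-fold higher than in other cells. Over all tested genes 12.0% and 6.93% were. The titin genes ttn.1 and ttn.2, which encode the giant protein between Z-disc and M-band, had 21 and 17 heterozygous and 54 and 37 homozygous counts there, and none of these lay in the cell with 1293 counts.

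Chaperones of myosin folding and sarcomere assembly were seen in nearly all cells of the class, 20 of 21 and 21 of 22, compared with 14 and 19 cells for the 7 genes. Most of these counts were those of hspb1, a small heat shock gene that is also expressed in other cells, with 55 of 110 and 204 of 372 counts in 17 and 20 cells, and 2138 and 1112 counts outside the class. Its ratio between the genotypes was 2.42 (1.79 to 3.32). Of the 3 genes with enough counts all were at least 2-fold higher than in other cells of each library, where 12.0% and 6.93% of all tested genes were. Among the others, hsp90aa1.1, a heat shock protein that with unc45b folds myosin, had 26 and 103 counts in 10 and 19 cells, a ratio of 2.58 (1.67 to 4.14). For unc45b there were 16 and 32 counts in 9 and 14 cells (ratio 1.3035, 0.695 to 2.54). The summed ratio was 2.20 (1.78 to 2.75), and 1.998 (1.60 to 2.502) without the cell.

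The 10 cardiac sarcomere genes in the files had 3 and 24 counts in the class (ratio 5.21, 1.58 to 27.0, and 1.79, 0.429 to 10.46, without the cell), of which 3 and 22 were those of smtnl1. Of these 22 smtnl1 counts, 16 lay in the cell with 1293 counts. The cardiac genes myl7, vmhc and tnnt2a were at 0 in all 43 cells, while cmlc1 had 2 counts in 2 homozygous cells. In the homozygous library 7 of 8 cardiac genes with enough counts were at least 2-fold lower there than in other cells, where 27.6% of all tested genes were. In the heterozygous library 1 of 4 such genes was lower and 1 higher, where 25.3% and 12.0% of all tested genes were. Without the prior count 3 of 4 were lower, where 41.9% of all tested genes were. Of the 16 myogenic regulators, 9 of 12 heterozygous and 7 of 10 homozygous genes with enough counts were at least 2-fold higher in the class. Over all tested genes these shares were 12.0% and 6.93%. In each library 2 regulators were at least 2-fold lower, where 25.3% and 27.6% of all tested genes were. Several of these regulators are markers that named the cluster, so this is a description of it. Their summed genotype ratio was 1.19 (1.07 to 1.32), and 1.22 (1.101 to 1.35) without the cell.

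Parvalbumin 9 had its counts elsewhere. Of its 173 homozygous counts, 144 (83.2%) lay in 18 of the 63 cardiomyocyte-like cells, at 293 CPM (247 to 346), and 24 more in 7 of 105 p53 response-like cells. None of the 21 heterozygous cardiomyocyte-like cells had a count, which makes the homozygous level at least 13.6-fold higher against a floor of 3 counts per library, a bound that leaves out the counting error of the 144. The lower limit of the exact interval of the ratio was 10.9, and 8.99 without the cell with most counts. The 5 heterozygous counts were single UMIs in 5 cells. In homozygous cardiomyocyte-like cells the level was 58.6 times (39.1 to 90.5) that of the other homozygous cells, and pvalb9 was the only one of the 7 genes at least 2-fold higher in that class of that library, where 13.8% of genes were, while 5 were at least 2-fold lower, where 17.3% were. After thinning, 8 of 42 homozygous cells (19.0%, 8.60 to 34.1) and 0 of 12 heterozygous cells (up to 26.5%) had a pvalb9 UMI. A further homozygous barcode with 40090 UMIs and 3929 genes, above the gene limit and hence not kept, carried 25 pvalb9 counts.

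The pvalb9 cells were not those with the other muscle genes. The 9 cardiomyocyte-like cells with at least 5 counts had 7 to 21 of them, and 8 of the 9 had no count of any other of the 7 genes. None of the 10 homozygous cells with at least 5 pvalb9 counts had actc1b, myl1 or myog. Within the homozygous cardiomyocyte-like cells, those with pvalb9 had lower summed levels of cardiac sarcomere genes. The atrial and ventricular light chain gene myl7 was at 115 CPM (66.7 to 183) in the 18 cells with and 982 CPM (879 to 1092) in the 45 cells without pvalb9. The light chain gene cmlc1 was at 40.4 (14.8 to 88.0) against 1230 CPM (1115 to 1353), and the ventricular heavy chain gene vmhc at 13.5 (1.63 to 48.7) against 394 CPM (331 to 467). Next came tnni1b at 60.6 against 657 CPM and tnnc1a at 128 against 505 CPM. Smaller differences were those of tnnt2a, at 357 (268 to 467) against 687 CPM (602 to 780), and smtnl1, at 350 (262 to 460) against 917 CPM (819 to 1025). Counts of myl7 were found in 7 of the 18 cells with and 25 of the 45 cells without pvalb9. Those of cmlc1 were in 2 and 18 cells, and those of vmhc in 1 and 14. Many cells without pvalb9 thus also lacked these genes, and the intervals do not hold this spread between cells. For cardiac transcription factors the 2 sets lay closer, with nkx2.5 at 216 (147 to 304) against 172 CPM (131 to 222), hand2 at 384 (291 to 498) against 479 CPM (409 to 558), and gata5 at 270 (193 to 367) against 140 CPM (103 to 186), the last pair without overlap of the intervals. The median depth was 9771 UMIs with and 6287 without pvalb9. Of the 18 cells with pvalb9, 9 had fewer than 5 counts and 4 of these a single one. In the 9 cells with at least 5, a limit added after seeing the data, myl7 was at 99.6 CPM (40.04 to 205), cmlc1 at 28.5 (3.45 to 103) and vmhc at 0 (up to 52.5), while nkx2.5 was at 114 CPM (49.1 to 224), hand2 at 327 (207 to 491) and gata5 at 341 (219 to 508). Across the 63 cells the rank correlation of pvalb9 with myl7 was -0.26 and that with cmlc1 -0.28, which in counts this sparse is no more than a description. The class was named from markers that include myl7, cmlc1 and vmhc, and its make-up differs between the libraries, with 21 and 63 cells.

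**Figure D5:**
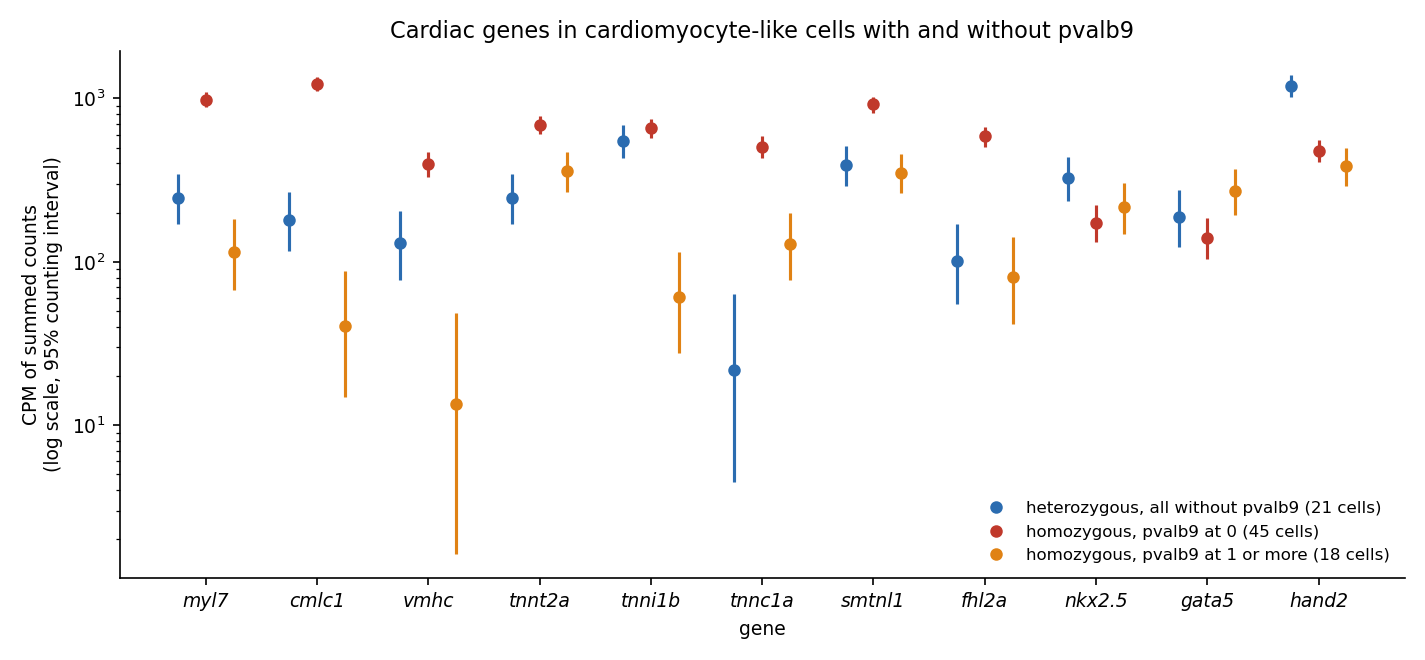
Level of cardiac genes (y axis, CPM of summed counts, log scale; bars are 95% counting intervals) in the 21 heterozygous cardiomyocyte-like cells, none of which has pvalb9 (blue), and in the homozygous ones without (red, 45 cells) and with pvalb9 (orange, 18 cells). The sarcomere genes myl7, cmlc1, vmhc and tnni1b are lowest in cells with pvalb9, while tnnt2a and tnnc1a there lie between the heterozygous and the other homozygous cells. The intervals of nkx2.5 and hand2 overlap between the 2 homozygous sets.

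In the cardiomyocyte-like and mesenchyme classes the other genes were rare. In cardiomyocyte-like cells actc1b had 0 heterozygous and 3 homozygous counts, myl13 had 0 and 1, tnni2b.1 had 3 and 5, and myl1 and tnnt2c had none. The exception was myl10, a light chain gene, with 3 counts in 1 heterozygous and 44 counts in 7 homozygous cells (21.7 and 89.7 CPM, ratio 4.14, 1.33 to 20.8), where free RNA would give 1.25 homozygous counts. In the heterozygous library myl10 was the 1 of 3 genes with enough counts at least 2-fold higher in this class than in others, where 20.2% of genes were, on 3 counts of 1 cell. Of the 44 homozygous counts, 17, 12 and 11 lay in 3 cells. The cell with 12 also had 63 cmlc1, 32 myl7 and 22 vmhc counts, and the cell with 17 had none of these cardiac genes.

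Lateral plate mesenchyme-like cells, 72 heterozygous and 83 homozygous ones, held 17 and 22 counts of the 7 genes in 13 and 18 cells, a ratio of 0.968 (0.491 to 1.94). No cell of this class had more than 3 counts of any of the genes. For actc1b there were 2 and 5 counts (2.55 and 4.78 CPM), for myl10 2 and 8 (2.55 and 7.65 CPM), and for myl13 2 each. For myl1 and tnnt2c there were none (up to 4.71 CPM in the heterozygous and 3.53 CPM in the homozygous library). For tnni2b.1 there were 11 and 5 (14.0 and 4.78 CPM), against 0.406 and 0.845 counts of free RNA. The ratio of actc1b in myocyte-like over mesenchyme-like cells was 111 (29.3 to 945) in the heterozygous and 261 (111 to 808) in the homozygous library. Free RNA would give 1.27 of the 17 heterozygous and 8.57 of the 22 homozygous counts in mesenchyme-like cells, and the intervals of the 2 summed levels overlap.

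Counts outside the myocyte-like class numbered 374 in heterozygous and 428 in homozygous cells, against 27.1 and 49.1 counts that the estimated free RNA would give. For myl13 the 14 homozygous counts (interval 7.65 to 23.5) were near the 11.3 of free RNA and lay in 14 cells, while the 15 heterozygous counts (8.40 to 24.7) exceeded the estimate of 2.17. For tnnt2c there were 3 counts in each library, against 0 and 1.08. For the other genes a few single cells held many of the counts outside the class.

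Most counts of tnni2b.1 in the heterozygous library lay outside the class, 216 of 251, against 8.67 of free RNA. Of them 124 lay in p53 response-like cells, a cluster named for genes induced by p53, at 46.5 CPM (38.7 to 55.5). In 6 cells of that class there were 5 to 38 tnni2b.1 counts, and none of the 6 had a count of another of the 7 genes. Homozygous p53 response-like cells had 6 tnni2b.1 counts, 4.51 CPM (1.66 to 9.82), an interval below the heterozygous one. Outside the myocyte-like class, tnni2b.1 was the only one of the 7 genes lower in the homozygous library, with a ratio of 0.413 (0.276 to 0.601), so its ratio of 2.98 over all cells joins a higher level in one class and a lower one outside it.

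Single cells of other classes also held myl10. For example, 1 homozygous neural-like cell had 35 counts, all counts of that class, and 1 EPC-like cell had 7. Epidermal-like cells of both libraries had myl10 more widely, in 15 of 51 heterozygous cells (29 counts, 63.9 CPM, 42.8 to 91.8) and 9 of 20 homozygous cells (23 counts, 122 CPM, 77.4 to 183), where free RNA would give 0.191 and 0.479 counts. For myl1, homozygous RBC-like cells had 25 counts in 6 cells, up to 8 in a cell, and homozygous p53 response-like cells had 17 counts in 6 cells. Of the 4 cells with 5 or more myl1 counts in these 2 classes, 3 had no other of the 7 genes.

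Ordered by summed level, the heterozygous classes were myocyte-like (843 CPM), epidermal-like (85.9), p53 response-like (55.2) and cardiomyocyte-like (43.3), followed by endothelial-like (22.8), mesenchyme-like (21.7), tailbud-like (18.5), neural-like (10.8), RBC-like (10.47), EPC-like (8.27) and macrophage-like cells (8.23). Only the step from the myocyte-like to the epidermal-like class lies outside the intervals of both neighbours, 715 to 987 and 61.1 to 117. In the homozygous library the order was myocyte-like (6163 CPM), cardiomyocyte-like (401), EPC-like (284, only 3 cells), epidermal-like (154), neural-like (105), p53 response-like (51.9), macrophage-like (30.4, only 3 cells), RBC-like (26.9), mesenchyme-like (21.03) and tailbud-like cells (14.9), and the 2 endothelial-like cells had none. Here too the first step stands apart, and it does so without the cell with 1293 counts, at 1592 CPM. Of the later steps, the one from neural-like (73.2 to 145) to p53 response-like cells (40.4 to 65.7) also lies outside both intervals, and the others do not. The cardiomyocyte-like level was that of pvalb9 for the most part, and the neural-like one that of 1 cell with myl10.

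Across the 19 groups of at least 10 cells, formed by class and library, actc1b, myl1, myl13, tnnt2c and tnni2b.1 had correlations of log2(CPM + 10) between 0.87 and 0.99. Each of them was highest in the myocyte-like groups, so these values describe that contrast and not use of the genes in the same cells. The correlations of myl10 with these 5 genes were 0.71 to 0.78, and those of pvalb9 with the other 6 genes -0.11 to 0.16. These groups share libraries and depth, and the homozygous myocyte-like group holds the cell with 1293 counts. Without that cell the level of myl13 in that group was 22.0 instead of 1449 CPM, and that of tnnt2c 51.4 instead of 560 CPM. Outside all gene lists, the genes most like the sum of the 7 were ITGB1BP2 (0.88), CABZ01078594.1 (0.86), mss51 (0.85), rps28 (0.85) and mafaa (0.85). Of these mafaa was a marker used for naming the cluster, and rps28 encodes a ribosomal protein with 144680 counts over both libraries. Those most like pvalb9 were oplah (0.94), slc32a1 (0.94), a transporter of inhibitory neurotransmitters, and si:dkey-226m8.10 (0.91).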

How the data were processed

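The authors aligned the reads with Cell Ranger (version 2.0.2 in the submitters' processing notes, GRCz10) and deposited UMI counts per gene and barcode for all 737280 barcodes of each library, without filtering or normalization. The gene annotation is not given in the sources used here. From these counts, barcodes were kept by the limits in the report. The UMI minimum is not one of the study's stated limits, and 2049 and 588 barcodes pass without it. Members and gene lists were chosen with earlier results of these data known.

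Clustering used Seurat 5.3.0 with R 4.3.3 and took from the study the normalization to 10000, the regression of UMIs and mitochondrial share, 13 components, the SLM algorithm and resolution 0.6. The limits of variable genes by mean (0.0125 to 3) and dispersion (at least 0.5) and the number of neighbours, 30, were set here, and the variable genes are fewer than the study's. Of 2000 variable genes 1966 were used, leaving out the 7 genes and 5 lists of contractile genes. A cluster was named with at least 3 markers, and at least 50% of its class's markers, at 2-fold or more, a rule set after the clusters were seen, so names need not match the study's.

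CPM are summed counts per 1000000 UMIs. Their intervals are Poisson, those of shares Clopper-Pearson, and those of ratios conditional on both counts. A fold call required 50 counts over the groups compared and a 2-fold ratio after 0.5 was added to both counts. Printed ratios have no such prior count. Free RNA was taken as hemoglobin counts (15 genes) outside the RBC-like, EPC-like and p53 response-like classes, relative to empty droplets of 1 to 100 UMIs. Those classes were left out after their values were seen. Barcodes kept as cells in the other library were not removed from the empty droplets, and the effect on the estimate was not tested. Named beside the 7 genes were up to 4 genes per list with the most counts in myocyte-like cells, myf5, myod1 and myog, and the 5 genes most correlated with the sum. Genes named for other reasons, such as those high in 1 cell, cardiac genes in the pvalb9 comparison and those most like pvalb9, were chosen after their values were seen. The interval and the fold call were tested on simulated counts. Python 3.11.15, numpy 2.4.6, scipy 1.17.1, pandas 2.3.3 and matplotlib 3.10.9 were used.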

Additional observations from a re-analysis of the deposited data

Results flagged for a closer look

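Barcodes that the comparisons did not use held counts of the 7 genes above the floor of 3 counts used here. Barcodes with more than 100 and fewer than 2500 UMIs held 289 counts for heterozygous embryos, 217 of them in 1 barcode, and 182 counts for homozygous ones, 122 of them in 1 barcode. Barcodes with 2500 UMIs or more that failed the limits of genes or mitochondrial counts held 6 heterozygous and 29 homozygous counts, of which 25 were pvalb9 counts of 1 barcode. The 289 and 182 counts correspond to 369 and 907 CPM.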

How the results depend on the processing

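The ratio over all kept cells was above 1 for each of the 7 genes under all alternatives run. For the summed counts it was 7.71 without a UMI minimum, 4.81 without the cell of each library with the highest sum, and 14.3 as a mean of CPM per cell, against 11.0. In myocyte-like cells it was 3.10 without a UMI minimum, when 32 and 25 cells were in the class, 8.70 with a minimum of 5000 UMIs, 2.48 without the highest cells, 2.36 in cells with at least 2 UMIs of myf5, myod1 and myog, and 9.66 as a mean per cell, against 7.31. Without the highest cells the ratios of myl10 and myl13 in the class turned to 0.191 and 0.746, since 449 and 400 counts leave with 1 cell. The heterozygous cell left out there is 1 of 2 tied at 45 counts, and without each library's highest myl10 cell the ratio of myl10 was 2.56. Without a UMI minimum the class ratios of myl13 and tnnt2c were 3.15 and 4.61, against 52.9 and 25.6. With the highest cells left out that of myl1 was 8.32, against 3.70. This value depends on the same tie, since the heterozygous cell left out held 11 of the 19 myl1 counts and the other tied cell none. Without only the homozygous cell with 1293 counts the ratio of myl1 was 3.77. The share of the counts in myocyte-like cells, 29.2% and 80.1%, was 48.8% in the heterozygous library without a UMI minimum, 82.96% in the homozygous one with a minimum of 5000, 82.0% there with the empty-droplet profile subtracted, 22.6% and 50.3% without the highest cells, and 18.4% and 20.2% by myf5, myod1 and myog, which leave out the cell with 1293 counts. Resolution 1.0 and clustering with the contractile genes changed no value beyond its interval. Of 119 values under these alternatives, 78 stayed within the main interval. Without the prior count, an alternative chosen after seeing the data, some heterozygous calls changed by over 1.5 times. In myocyte-like cells 1 instead of 2 fast filament genes was higher, and 2 instead of 0 Z-disc genes and 3 instead of 1 cardiac genes were lower. In cardiomyocyte-like cells 1 instead of 0 of the 7 genes (actc1b) was lower. Over all tested genes, 7.52% instead of 12.0% were higher and 41.9% instead of 25.3% lower in myocyte-like cells. In cardiomyocyte-like cells 34.2% instead of 15.4% of all tested genes were lower. No paired analysis was possible because there is 1 library per genotype. Limits are the single library per genotype, the 43 myocyte-like cells and counts of 20 or fewer for myl13, tnnt2c and pvalb9 in the heterozygous library.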
